A study of Homo sapiens with 9 samples.

Results

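PGC-1 coactivators and the factors that carry out mitochondrial biogenesis were compared across 3 subclones of the melanoma line SK-MEL-5, which was established from a human tumour and has a mutated BRAF gene. The set holds 10 genes of the 60675 in the count table, taken by matching Ensembl identifiers to the symbols PPARGC1A, PPARGC1B, PPRC1, ESRRA, NRF1, GABPA, PPARA, TFAM, TFB1M and TFB2M. All 10 were found and all 10 passed the filter on low counts, with between 284 and 18229 counts in a library. RNA was sequenced from 3 libraries each of the subclones SC01, SC07 and SC10, and all 9 libraries came from cells that had received no drug. Each subclone was grown from a single cell and is therefore 1 clone. Per the labels, the clones were chosen for how they initially responded to PLX-4720, an inhibitor of mutant BRAF, and which clone responded in which way is not stated. All clones share the genotype of the parental line as far as the labels go. The comparisons therefore ask how sister clones differ in these genes when no drug is present.

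Mitochondria are built mostly from proteins encoded in the nucleus, and PGC-1 coactivators raise the transcription of many of those genes. They do not bind DNA themselves. They dock on DNA-binding factors, among them the estrogen-related receptor ERR-alpha, the nuclear respiratory factors NRF-1 and GABP, and the fatty-acid-sensing receptor PPAR-alpha. These factors in turn drive TFAM, TFB1M and TFB2M, which are imported into mitochondria and act on mitochondrial DNA and RNA. In melanoma, PGC-1alpha is known as a target of the lineage factor MITF and marks cells that rely on oxidative metabolism. NRF1 here is nuclear respiratory factor 1, not the stress factor NRF2.

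Library totals ran from 30224066 to 39454087 counts. Whether the libraries within a clone are separate cultures is not stated in the labels. The p-values therefore rest on a spread that could be technical. SC10 replicate 3 stood apart from the other SC10 libraries, with a chi-square of 10.2 and 11.3 per degree of freedom against them and 2.53 between those, and values without it are given where it moves a result. Of 8 melanocyte and melanoma markers, 7 were tested, and their summed level was 10875 to 11532 CPM (counts relative to library size in the usual CPM unit, after TMM scaling) in SC01, 24452 to 24962 in SC07 and 15283 to 15495 in SC10. The markers did not all follow that sum. Of the 7 tested, 5 were called higher and 2 lower against SC01 in SC07, and likewise in SC10. In SC10 against SC07, 3 were higher and 4 lower. These counts are to be read beside the shares of all genes given below. SOX10, a defining factor of this lineage, was listed at 0 in all libraries. POLR2F on the other strand overlaps 2.40% of its exon bases. Whether the 0 reflects absent SOX10 RNA or the counting was not tested. Fibroblast markers, 5 of 7 tested, summed to 161 to 168 CPM in SC01, 437 to 499 in SC07 and 363 to 401 in SC10, most of it from LUM. Of the 5 tested, 2 were higher and 2 lower in SC07 against SC01, and 2 higher and 1 lower in SC10. Keratinocyte markers, 3 of 7 tested, summed to between 21.9 and 27.8 CPM in all clones, but single markers differed. Of those 3, 2 were higher and 0 lower in SC07 against SC01, and 1 was higher and 1 lower in SC10. Their median size of log2 change was 2.49 in SC07 and 2.75 in SC10. Immune markers, 1 of 5 tested, summed to 0.299 to 0.714 CPM in SC01, 3.16 to 3.74 in SC07 and 0.738 to 1.34 in SC10. The part of these marker differences in the results was not tested. In such bulk libraries, fewer cells that express a gene and less RNA per cell cannot be told apart.

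The DNA-binding factors of the set bind short motifs, so the start regions of the members were searched for them. RefSeq windows on GRCh38.p14, each from 250 bases before to 50 bases after a transcript start, matched 9 of the 10 members in 11 windows. The member without a window was NRF1. The NRF-1 motif GCATGCGC, read on both strands, was present in 4 of the 11 windows, those of ESRRA, PPARA, TFB1M and TFB2M, and in 3.05% of all 35116 windows. The stretches that hold it are shown 5′ to 3′ on the gene's strand, with the motif in capitals. In TFB1M and PPARA a match on the other strand overlaps the one shown.
TFB1M, chr6:155314597-155314624, minus strand: aggacttagcGCATGCGCtctcagcacg
TFB2M, chr1:246566262-246566286, minus strand: tccgctgttcGCATGCGCaggctct
ESRRA, chr11:64305485-64305512, plus strand: cccctgctttGCATGCGCacggccggcc
PPARA, chr22:46150760-46150787, plus strand: gctgggcggcGCATGCGCggggcccggg

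The ETS core CGGAAG, the kind of site that GABPA binds, was present in 4 of the 11 windows, those of GABPA, PPARA, TFB1M and TFB2M, and in 19.5% of all windows. The core site AAGGTCA of ERR receptors was in 0 of 11 and 3.92% of all windows, and the cyclic AMP response element TGACGTCA in 0 of 11 and 1.85%. PPARGC1A had 2 windows, and each held an E-box, the kind of site that MITF and related factors bind. The form CACGTG was in 1 of the 11 member windows and 7.26% of all windows. The form CATGTG was in 2 of 11, of PPARGC1A and ESRRA, and in 11.1% of all windows. None of the motifs searched was found in a window of TFAM, PPARGC1B or PPRC1. The PPARGC1A stretches are shown because this gene changed most, again with the motif in capitals.
PPARGC1A, distal start, chr4:24473013-24473038, minus strand: tcagcgcgccCACGTGacggccccgg
PPARGC1A, proximal start, chr4:23881215-23881240, minus strand: gaatctgatcCATGTGtaaggaaaac
A match describes the letters in the window and is not a measured site. The distal start lies outside the span of PPARGC1A in GENCODE 29, on its upstream side. The counts are per gene and do not tell which start was used.

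PPARGC1A was far higher in SC07 and SC10 than in SC01, its paralog PPARGC1B was lower in both, and ESRRA, PPARA and TFAM were higher in both. NRF1, GABPA and TFB2M were lower in both. In SC07 against SC01, 62.0% of the 18009 genes tested passed an adjusted p of 0.05 in edgeR's quasi-likelihood test (31.5% higher, 30.5% lower), and 9 of the 10 members did, 4 higher and 5 lower. In SC10 against SC01 the share of all genes was 65.9% (33.5% higher, 32.4% lower), and 9 members passed, 5 higher and 4 lower. In SC10 against SC07 it was 47.9% (24.8% higher, 23.0% lower), and 5 members passed, all 5 higher in SC10. Over all 3 clones together, 10 of 10 members and 76.3% of all genes passed. Members whose libraries did not overlap numbered 9, 9 and 7 in the 3 comparisons in this order, beside 67.4%, 69.1% and 53.4% of all genes. Called changes of at least 2-fold were seen in 2, 3 and 0 members, beside 17.8%, 19.5% and 8.62% of all genes. In edgeR's test against a 1.5-fold change, 3, 4 and 0 members passed, beside 20.6%, 23.3% and 8.02%, and 0 passed in SC10 against SC07 at an unadjusted p under 0.05 as well. In SC10 against SC07, 0 members were called lower by the main edgeR fit, by DESeq2 or by limma-voom. The main fit used all 9 libraries, TMM scaling, the filter on low counts and no term for replicate number. In it 1 member, PPARGC1A, was lower at an unadjusted p under 0.05. Settings under which PPARGC1A was called lower are given with its values and in the closing section. With so many genes called, these counts alone do not set the members apart, and the sizes and directions below carry the description. The median size of the members' log2 change was 0.43 in SC07 against SC01, 0.48 in SC10 against SC01 and 0.17 in SC10 against SC07, beside 0.39, 0.43 and 0.26 over all genes. The comparisons of SC07 and of SC10 with SC01 share the SC01 libraries, so their values are given side by side and are not independent.

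**Figure D1:**
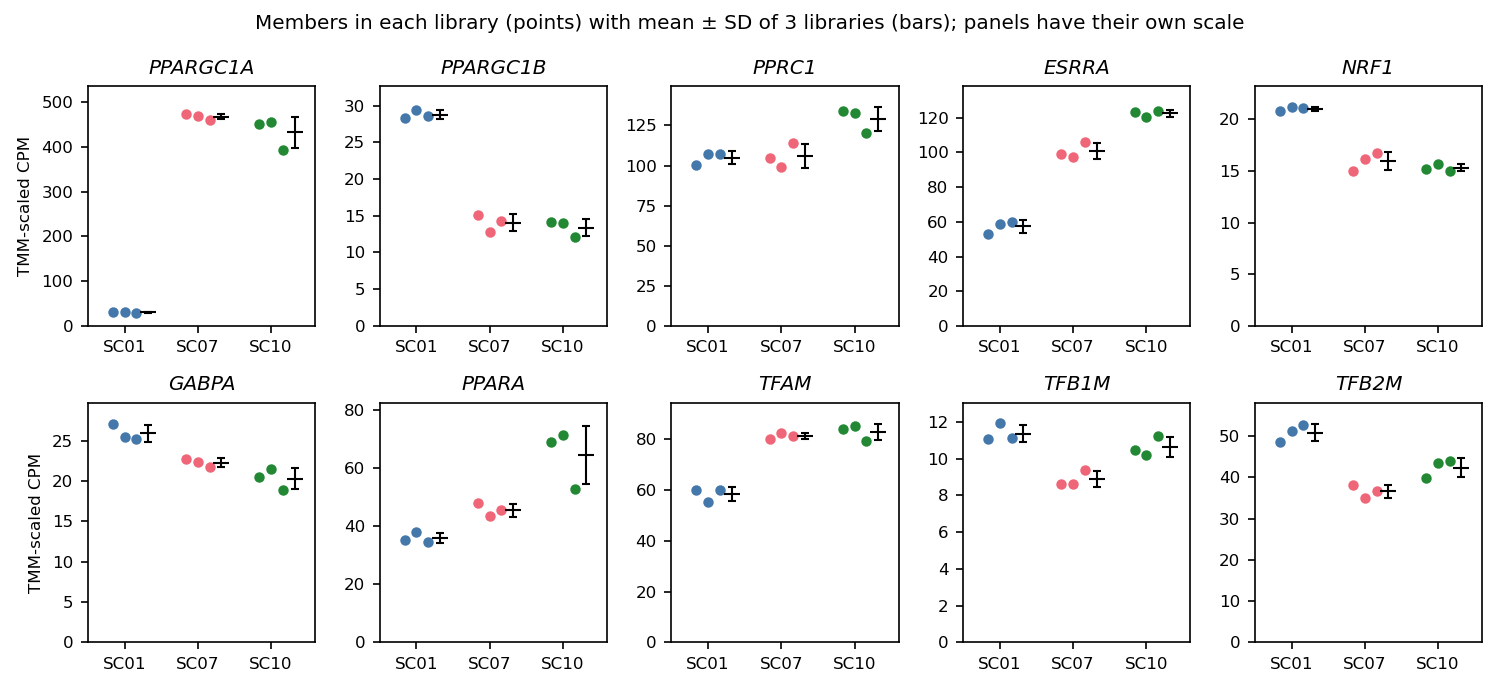
TMM-scaled CPM of the 10 genes in each library, 1 panel a gene with its own axis from 0, points for the 3 libraries of a clone and bars for their mean ± SD. PPARGC1A lies between 29.1 and 31.0 CPM in SC01 and between 393 and 473 CPM in SC07 and SC10, while PPARGC1B is highest in SC01.

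PPARGC1A, which encodes PGC-1alpha, the inducible coactivator of the family (chromosome 4, 23755041 to 23904089, minus strand, GENCODE 29 on GRCh38), measured 30.4, 31.0 and 29.1 CPM in the SC01 libraries. It measured 473, 470 and 461 CPM in SC07, and 451, 456 and 393 CPM in SC10. Every SC07 and SC10 library was above every SC01 library by an order of magnitude, and SC10 replicate 3 was the lowest of the high 6. The clone means were 30.2 ± 1.0, 468 ± 6.4 and 433 ± 35 CPM (SD, n = 3 here and below). SC07 exceeded SC01 15.5-fold (95% interval 14.3 to 16.8), a log2 change of 3.96 ± 0.06 (SE) with an edgeR adjusted p of 2.05e-28. Of all tested genes, 1.90% changed by more. SC10 exceeded SC01 14.4-fold (13.3 to 15.6), a log2 change of 3.84 ± 0.06 with an edgeR adjusted p of 6.22e-28. Between SC10 and SC07 the libraries did not overlap, but the log2 change of -0.11 (-0.21 to -0.01) did not pass (edgeR adjusted p = 0.0570). Without SC10 replicate 3 that change was -0.04 (edgeR adjusted p = 0.396), and without SC10 replicate 1 or 2 it was -0.13 or -0.14 and passed. It also passed with library totals only and with no filter on low counts (edgeR adjusted p = 0.0477 and 0.0430).

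PPARGC1B encodes PGC-1beta, the coactivator that shares most of PGC-1alpha's partners and maintains basal mitochondrial content (chromosome 5, 149730298 to 149855022). It went the other way. Its levels were 28.3, 29.4 and 28.7 CPM in SC01, 15.1, 12.8 and 14.3 in SC07, and 14.1, 14.0 and 12.1 in SC10. The SC01 libraries stood above all others, and the SC07 and SC10 libraries overlapped. SC07 was 2.05-fold lower than SC01 (1.84 to 2.28), a log2 change of -1.04 ± 0.08 with an edgeR adjusted p of 1.59e-12. SC10 was 2.15-fold lower (1.93 to 2.39), a log2 change of -1.10 ± 0.08 with an edgeR adjusted p of 4.28e-13. The change between SC10 and SC07 was -0.07 with an interval of -0.23 to 0.10.

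PPRC1 encodes PRC, a serum-responsive member of the family that is linked to growth (chromosome 10, 102132994 to 102150331). It measured 100.5, 107 and 107 CPM in SC01, 105, 99.1 and 114 in SC07, and 134, 133 and 120 in SC10. The SC01 and SC07 libraries overlapped and every SC10 library was above them. The log2 change of SC07 against SC01 was 0.01, with an interval of -0.10 to 0.12, and its sign was not fixed under other settings. SC10 was higher than SC01 by 0.30 ± 0.05 and than SC07 by 0.29 ± 0.05 on the log2 scale (edgeR adjusted p = 1.58e-05 and 5.29e-05).

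Levels of different genes can be compared only per length, here as CPM per kilobase of annotated exon (RPKM). In SC01, PPRC1 supplied 77.5% ± 0.74 of the summed RPKM of the 3 coactivators, PPARGC1A supplied 12.5% ± 0.57, and PPARGC1B the rest. In SC07 the shares were 28.2% ± 1.6, 70.0% ± 1.7 and 1.77% ± 0.12, and in SC10 34.1% ± 0.54, 64.2% ± 0.52 and 1.67% ± 0.020. The leading coactivator transcript was thus PPRC1 in every SC01 library and PPARGC1A in every SC07 and SC10 library. The sum of the 3 was 22.2 ± 0.66 RPKM in SC01, 61.5 ± 0.92 in SC07 and 62.1 ± 4.5 in SC10. The exon length used includes exons of all annotated transcripts, and the share of PPARGC1A in SC01 rises to 17.6% with the longest transcript in its place.

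**Figure D2:**
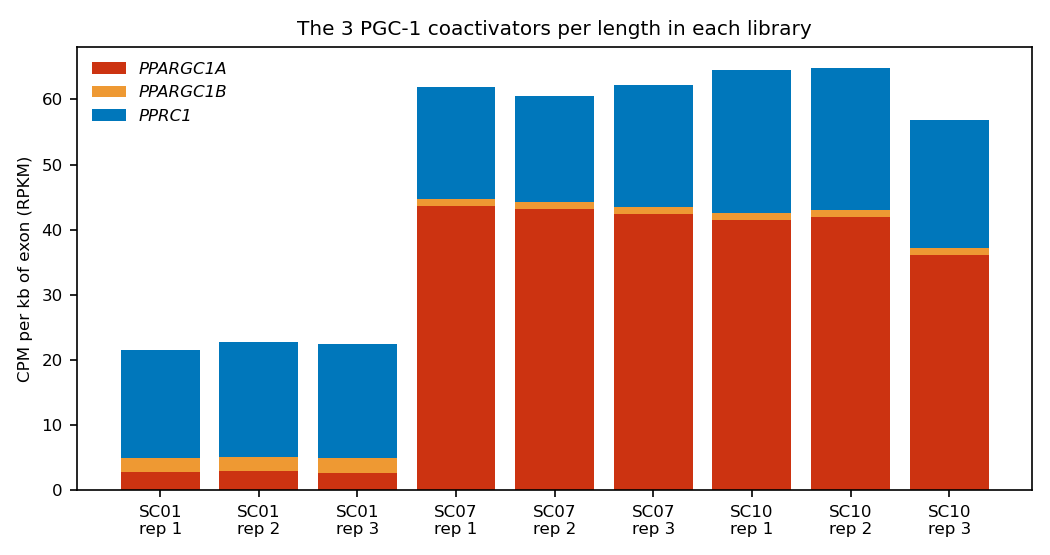
Stacked bars of CPM per kilobase of exon (RPKM) of PPARGC1A, PPARGC1B and PPRC1 in each of the 9 libraries, with the axis from 0. The PPRC1 layer averages 17.2, 17.4 and 21.2 RPKM in SC01, SC07 and SC10, and the PPARGC1A layer makes up most of the bar in SC07 and SC10.

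Among the DNA-binding factors, ESRRA and PPARA rose and NRF1 and GABPA fell in both clones. ESRRA encodes ERR-alpha, the orphan nuclear receptor through which PGC-1alpha raises respiratory genes (chromosome 11, 64305572 to 64316743). It measured 52.9, 59.0 and 60.1 CPM in SC01, 99.0, 97.1 and 106 in SC07, and 123, 120 and 124 in SC10. The 3 clones did not overlap and stood in the order SC01, SC07, SC10. The change against SC01 was 1.76-fold in SC07 (1.63 to 1.89, edgeR adjusted p = 8.23e-14) and 2.14-fold in SC10 (1.99 to 2.30, edgeR adjusted p = 8.81e-17). SC10 exceeded SC07 by 0.28 ± 0.05 on the log2 scale (edgeR adjusted p = 2.64e-05). TRMT112 overlaps 9.37% of ESRRA's exon bases and changed in the opposite direction, by -0.29 in SC07 and -0.27 in SC10.

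PPARA encodes PPAR-alpha, a nuclear receptor of fatty acids that drives their oxidation (chromosome 22, 46150521 to 46243756). Its levels were 35.1, 38.1 and 34.8 CPM in SC01, 47.9, 43.4 and 45.5 in SC07, and 68.9, 71.5 and 53.0 in SC10. The clones did not overlap, and SC10 replicate 3 was well below the other SC10 libraries. SC10 was 1.79-fold above SC01 (1.54 to 2.09, edgeR adjusted p = 1.85e-05) and 1.42-fold above SC07 (1.22 to 1.65, edgeR adjusted p = 0.00148). Without SC10 replicate 3 those log2 changes were 0.97 and 0.63, against 0.84 and 0.50 with it. SC07 exceeded SC01 by 0.34 ± 0.10 on the log2 scale (edgeR adjusted p = 0.0131). That call was lost when counts were scaled by library totals only (adjusted p = 0.0657), and without SC01 replicate 1, SC01 replicate 3 or SC07 replicate 3 (0.0524, 0.0509 and 0.0518).

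NRF1, the nuclear respiratory factor that binds the motif shown above (chromosome 7, 129611714 to 129757082), measured 20.8, 21.1 and 21.1 CPM in SC01. It measured 15.0, 16.2 and 16.7 CPM in SC07 and 15.2, 15.7 and 15.0 in SC10. All SC01 libraries were above all others, and SC07 and SC10 overlapped. The log2 change against SC01 was -0.39 ± 0.07 in SC07 and -0.46 ± 0.07 in SC10 (edgeR adjusted p = 1.63e-05 and 1.79e-06). GABPA, the DNA-binding subunit of GABP (chromosome 21, 25734570 to 25772460), measured 27.1, 25.5 and 25.2 CPM in SC01, 22.7, 22.4 and 21.8 in SC07, and 20.5, 21.5 and 18.9 in SC10. The 3 clones did not overlap. Its log2 change was -0.22 ± 0.07 in SC07 (edgeR adjusted p = 0.00527) and -0.35 ± 0.07 in SC10 (edgeR adjusted p = 3.35e-05). Between SC10 and SC07 it was -0.14, with an interval of -0.27 to 0.00 (edgeR adjusted p = 0.0955). ATP5PF, a subunit gene of ATP synthase that overlaps 7.61% of GABPA's exon bases, changed in the opposite direction, by 0.59 and 0.56 against SC01.

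The factors that act on mitochondrial DNA split as well, with TFAM higher and TFB2M lower outside SC01. TFAM packages mitochondrial DNA and opens its promoters (chromosome 10, 58385022 to 58399221). It measured 60.1, 55.4 and 60.1 CPM in SC01, 80.0, 82.4 and 81.2 in SC07, and 83.8, 85.2 and 79.3 in SC10. All SC01 libraries were below all others, and SC07 and SC10 overlapped. The change against SC01 was 1.39-fold in SC07 (1.29 to 1.49, edgeR adjusted p = 2.43e-09) and 1.41-fold in SC10 (1.32 to 1.52, edgeR adjusted p = 7.07e-10), and the log2 change between SC10 and SC07 was 0.03 (-0.07 to 0.13).

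TFB2M is the factor that melts the promoter for the mitochondrial RNA polymerase (chromosome 1, 246540560 to 246566324, minus strand). It measured 48.7, 51.1 and 52.8 CPM in SC01, 38.2, 35.0 and 36.7 in SC07, and 39.8, 43.4 and 44.0 in SC10. The clones did not overlap, with SC01 highest and SC07 lowest. The log2 change was -0.47 ± 0.06 in SC07 and -0.26 ± 0.06 in SC10 against SC01 (edgeR adjusted p = 2.59e-08 and 1.48e-04), and 0.21 ± 0.06 in SC10 against SC07 (edgeR adjusted p = 0.00277).

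TFB1M, a dimethyltransferase of the small mitochondrial ribosomal RNA (chromosome 6, 155257509 to 155314493, minus strand), was the member with the fewest counts in a library. It measured 11.1, 11.9 and 11.1 CPM in SC01, 8.65, 8.61 and 9.40 in SC07, and 10.5, 10.2 and 11.2 in SC10. SC07 lay below both other clones, and SC01 and SC10 overlapped. Its log2 change was -0.35 ± 0.09 in SC07 against SC01 (edgeR adjusted p = 8.98e-04) and 0.26 ± 0.09 in SC10 against SC07 (edgeR adjusted p = 0.0161). The second call was lost without SC07 replicate 1, SC07 replicate 2 or SC10 replicate 3 (adjusted p = 0.0506, 0.0575 and 0.0550). SC10 against SC01 gave -0.10 with an interval of -0.27 to 0.08. TIAM2 overlaps 7.86% of TFB1M's exon bases and changed by -0.88 in SC07 and -0.86 in SC10 against SC01, and it measured 2.90, 1.57 and 1.59 CPM in SC01, SC07 and SC10.

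**Figure D3:**
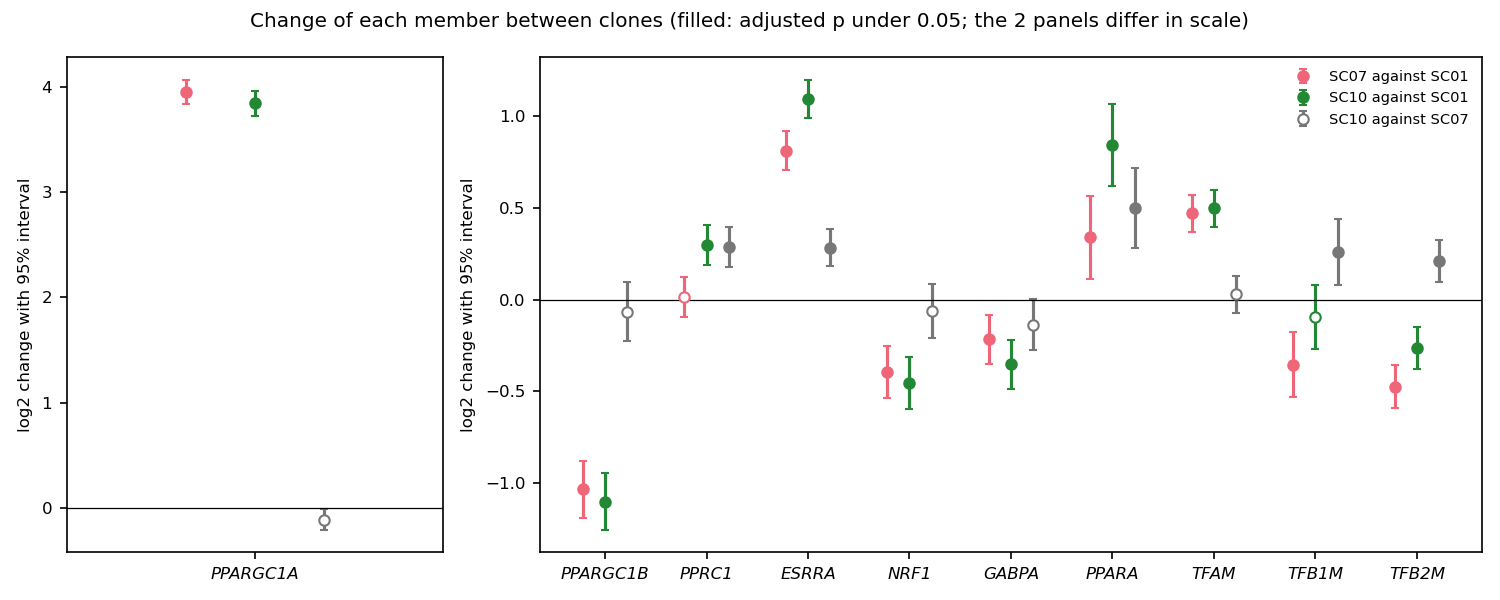
Log2 change of each of the 10 genes in the 3 comparisons with its 95% interval, filled where the edgeR adjusted p is under 0.05, with PPARGC1A on an axis of its own. PPARGC1A is near 4 against SC01, PPARGC1B near -1, and the largest change between SC10 and SC07 is that of PPARA, 0.50.

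Per length, the order of the 10 genes differed between the clones, and PPARGC1A moved most, from rank 8 in SC01 to 1 in SC07 and 2 in SC10. Other members moved as well. NRF1 went from rank 5 in SC01 to 7 in SC07 and 9 in SC10, and PPARA from 9 to 8 and 6. GABPA went from 6 in SC01 and SC07 to 8 in SC10, and TFB2M from 1 to 3 in both. In SC10, PPARA, TFB1M, GABPA and NRF1 each overlapped with the next in this order. In SC01, TFB2M led at 27.5 RPKM, above ESRRA (18.9) and PPRC1 (17.2), whose libraries overlapped, and TFAM (10.4). NRF1 (5.09), GABPA (4.78) and TFB1M (4.15) followed, then PPARGC1A (2.77) and PPARA (2.72), which overlapped, and PPARGC1B (2.23). In SC07, PPARGC1A led at 43.1 RPKM, followed by ESRRA (33.2), TFB2M (19.8), PPRC1 (17.4) and TFAM (14.5), none of which overlapped with its neighbour. In SC10, ESRRA (40.4) and PPARGC1A (39.9) led and overlapped, as did TFB2M (22.9) and PPRC1 (21.2), with TFAM at 14.8. PPARGC1B was last in every clone, at 1.09 RPKM in SC07 and 1.04 in SC10. The order depends on the length used, here all annotated exon bases, 10870 for PPARGC1A and 3030 for ESRRA. Their longest transcripts have 6318 and 2283 bases, and the order with that length was not tested.

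The protein-coding genes whose pair of log2 changes against SC01 lay nearest to that of PPARGC1A were CCSER1, CNTN1, FAM174B, NRG3 and SMAD9, out of 10844 genes with at least 5 CPM in their highest clone. Likeness was the distance between the pairs of changes over the 3 clones, from 0.053 for CCSER1 to 0.357 for SMAD9. CCSER1, also on chromosome 4, measured 0.791, 12.5 and 11.7 CPM in SC01, SC07 and SC10. CNTN1, a neural adhesion molecule, measured 1.98, 27.8 and 27.9 CPM, and SMAD9, a BMP signal transducer, 3.73, 64.0 and 42.7. The nearest tested protein-coding genes on each side of PPARGC1A did not share its change, and neither is adjacent to it. On chromosome 4, ADGRA3 spans 22345071 to 22516054 and DHX15 24517441 to 24584550, beside 23755041 to 23904089 for PPARGC1A. ADGRA3 on one side measured 80.8 ± 2.0, 70.8 ± 1.3 and 72.1 ± 4.3 CPM, with log2 changes of -0.19 and -0.16 against SC01. DHX15 on the other measured 212 ± 2.2, 256 ± 4.4 and 237 ± 6.7 CPM, with changes of 0.27 and 0.16, the second not passing with library totals only.

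The wider pathway was read from 8 lists with 132 genes. Counts below are of genes at an edgeR adjusted p under 0.05, to be read against the shares of all genes given above, and medians are of log2 changes, beside -0.01 over all genes in each comparison. Of the partner receptors and factors, 17 of 18 were tested, 3 higher and 12 lower in SC07 against SC01 (median -0.21), and 4 higher and 10 lower in SC10 (median -0.28). THRB, a thyroid hormone receptor, measured 5.45, 1.95 and 0.270 CPM in SC01, SC07 and SC10. PPARG, the receptor that governs fat cell genes, measured 8.72, 3.60 and 8.17 CPM, and was lower in SC07 than in SC01 (-1.27) and than in SC10 (1.18 for SC10 against SC07), while the SC10 change of -0.09 against SC01 did not pass. FOXO3, a forkhead factor that stress and starvation activate, fell from 30.5 CPM to 18.2 and 13.7. GABPB1, the partner subunit of GABPA, changed as GABPA did, by -0.25 and -0.32. ESRRG, a sister of ESRRA, had 0.0690, 1.66 and 0.316 CPM, with only a few counts in SC01.

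Among 21 upstream regulators, 7 were higher and 9 lower in SC07 against SC01 (median -0.02), which became 3 and 10 with library totals only, and 7 higher and 11 lower in SC10 (median -0.18). PRKAA2, a catalytic subunit of the energy sensor AMPK, measured 6.39, 24.5 and 29.5 CPM, log2 changes of 1.94 and 2.20. PRKAB1, a regulatory subunit of the same kinase, went down, from 29.7 CPM to 21.7 and 13.8. SIRT1, the deacetylase that activates PGC-1alpha, measured 13.6, 17.1 and 20.5 CPM. MITF, the lineage factor known to raise PPARGC1A, changed by 0.15 in SC07 and 0.29 in SC10, and the SC07 call was lost with library totals only (0.04, edgeR adjusted p = 0.352). PPARGC1A changed by 3.96 and 3.84 against SC01, and whether MITF had a part in that was not tested.

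Of 15 co-regulators and repressors, 6 were higher and 3 lower in SC07 against SC01 (median 0.08; 5 and 5 with library totals only, 6 and 5 without SC10 replicate 3). In SC10 against SC01, 4 were higher and 5 lower (median -0.03; 4 and 7 with library totals only, 6 and 5 without SC10 replicate 3). NCOA2, a p160 coactivator, measured 32.1, 60.9 and 68.0 CPM. PERM1, a muscle gene that responds to PGC-1 and ERR, measured 0.956, 3.47 and 2.67 CPM. NRIP1, a corepressor of ERR targets, measured 1.80, 0.346 and 0.220 CPM. Both are low in all clones.

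**Figure D4:**
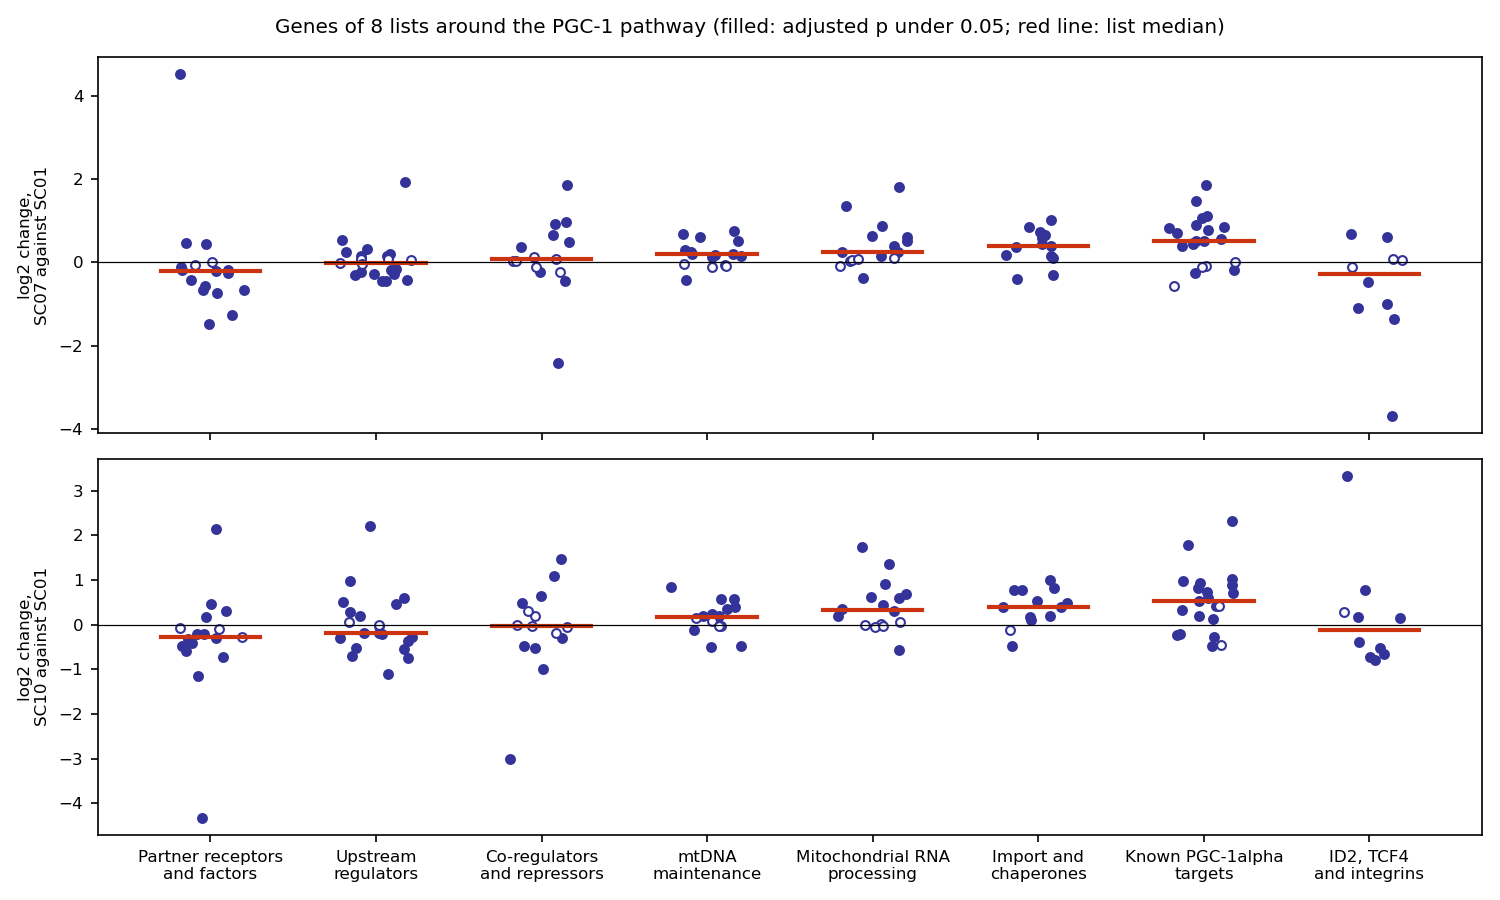
Log2 changes of each tested gene of the 8 lists, SC07 against SC01 above and SC10 against SC01 below, filled where the edgeR adjusted p is under 0.05, with a red line at the list median. The medians run from -0.29 to 0.52 above and from -0.28 to 0.53 below, and are highest for the known PGC-1alpha targets.

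In the lists of genes that act in mitochondria, and in that of known PGC-1alpha targets, higher calls outnumbered lower ones against SC01. The exception was the mitochondrial DNA list in SC07 with library totals only. The median size of change in SC07 and SC10 was 0.20 and 0.22 in the mitochondrial DNA list and 0.31 and 0.39 in RNA processing. It was 0.40 and 0.48 in import and 0.55 and 0.53 among known targets, beside 0.39 and 0.43 over all genes. Of 16 genes of mitochondrial DNA transcription, replication and nucleoid, 11 were higher and 1 lower in SC07 (median 0.19), and 8 higher and 3 lower in SC10 (median 0.17). With library totals only these became 5 and 5 in SC07, and 6 and 4 in SC10, and that scaling moves the median of all genes to -0.12 in both and their higher and lower calls in SC07 from 5675 and 5487 to 4666 and 6841. MTERF3, which restrains mitochondrial transcription, measured 19.3, 29.3 and 34.7 CPM, and LONP1, the matrix protease that degrades TFAM, 179, 286 and 204. POLRMT, the mitochondrial RNA polymerase, changed by 0.20 and 0.19. MGME1, a nuclease of mitochondrial DNA, was lower, by -0.41 and -0.50. Of 16 genes of mitochondrial RNA processing, 10 were higher and 1 lower in each clone (medians 0.25 and 0.33), or 9 higher and 4 lower in SC10 with library totals only. FASTKD1 measured 30.1, 105 and 99.9 CPM and FASTKD2, which is needed for mitochondrial ribosome assembly, 66.7, 171 and 171. LRPPRC, which stabilises mitochondrial messenger RNA, measured 250, 455 and 469 CPM, and GRSF1, of the mitochondrial RNA granule, 164, 249 and 264.

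Of 13 genes of protein import and chaperones, 11 were higher and 2 lower in SC07 (median 0.40), and 11 higher and 1 lower in SC10 (median 0.40). With library totals only the counts were 8 and 2 in each. HSPD1, the matrix chaperonin, measured 405, 821 and 815 CPM, and its partner HSPE1 41.6, 69.0 and 73.5. They are head-to-head neighbours with overlapping exons. TIMM50, an import receptor of the inner membrane, was higher in SC07 (443 CPM) than in SC01 (247) or SC10 (283). TOMM20, a receptor of the outer membrane, went down, from 334 CPM to 269 and 239. TIMM23 has a near-identical copy, so its 35.8, 40.5 and 61.8 CPM are uncertain.

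Of 23 known PGC-1alpha targets, 21 were tested, 15 higher and 2 lower in SC07 (median 0.52), and 15 higher and 4 lower in SC10 (median 0.53). With library totals only the counts were 15 and 4 in SC07, and 12 and 4 in SC10. IDH3A, a subunit of isocitrate dehydrogenase, measured 46.5, 169 and 161 CPM, though the annotated genes ACSBG1 and CIB2 overlap 38.9% of its exon bases. UCP2, an inner membrane carrier, measured 3.39, 9.51 and 17.0 CPM, ACADM, of fatty acid oxidation, 56.7, 123 and 108, and SDHA, of complex II, 177, 328 and 350. PRDX3, a peroxidase of the matrix, changed by 0.55 and 0.71. CAT, encoding catalase, was higher in SC07 and lower in SC10, at 119, 157 and 85.6 CPM. In melanoma, PGC-1alpha has been reported to act through ID2 and TCF4 on integrins. Of those 10 genes, 2 were higher and 5 lower in SC07 (median -0.29), and 4 higher and 5 lower in SC10 (median -0.12; 2 and 5 with library totals only). ID2 measured 8.80, 13.3 and 6.69 CPM, and ITGA2, of a collagen receptor, 35.8, 13.9 and 20.8. ITGA3 measured 80.1, 39.8 and 50.5 CPM, while ITGAV was higher in both clones (0.67 and 0.78). ITGB3 measured 3.10, 1.47 and 31.5 CPM, and a readthrough gene overlaps 51.6% of its exon bases.

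Between SC10 and SC07, higher and lower calls numbered 4 and 8 among partners, 6 and 8 among upstream regulators, and 1 and 4 among co-regulators, which became 3 and 3 without SC10 replicate 3. They numbered 3 and 3 in mitochondrial DNA and in RNA processing, 4 and 4 in import, 5 and 8 among known targets and 5 and 2 among ID2, TCF4 and the integrins.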

How the data were processed

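The authors deposited raw counts per Ensembl gene for the 9 libraries. Trizol was used for RNA and Illumina methods for the libraries, per the labels. HISAT2, featureCounts and GRCh38 are named in the submitters' processing notes, and the sources used here give no versions, annotation release or strand setting. These can change counts of overlapping or near-identical genes. GENCODE 29 named 57055 of 60675 genes. Libraries were grouped by their labels. The 18009 genes that passed filterByExpr entered a robust quasi-likelihood fit of the 9 libraries in edgeR 4.0.16 (R 4.3.3, TMM scaling), with Benjamini-Hochberg adjustment over all of them. CPM is TMM-scaled. SE was derived from the log2 change and its F statistic. The fit was tested on simulated counts.

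Alternatives were other scalings and filters, DESeq2 1.42.0, limma-voom (limma 3.58.1), a test against a 1.5-fold change, a non-robust fit, a replicate block, pairs of clones alone and leaving out each library.

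The members and lists were chosen with earlier results of these data known. Beside the members, the text names per list and comparison the 2 called genes with the largest change, no overlap and at least 5 CPM in the higher clone, the neighbours and the 5 genes most like PPARGC1A. Not all of these are described. ESRRG, GABPB1, SIRT1, MITF, PERM1, NRIP1, POLRMT, MGME1, LRPPRC, GRSF1, TOMM20, ACADM, SDHA, PRDX3 and ITGAV were chosen after their values were seen.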

Additional observations from a re-analysis of the deposited data

How the results depend on the processing

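In SC07 against SC01, 8 to 9 members passed when 1 library was left out, in SC10 against SC01 9, and in SC10 against SC07 4 to 6. Tested against a 1.5-fold change in edgeR, 3 members passed in SC07 against SC01 (2 higher, 1 lower; 20.6% of all genes), 4 in SC10 against SC01 (3 higher, 1 lower; 23.3%) and 0 in SC10 against SC07 (0 higher; 8.02%). In SC10 against SC07, 1 member was lower, namely PPARGC1A, with library totals only (adjusted p = 0.0477), with no filter (0.0430), and without SC10 replicate 1 (0.0485) or 2 (0.0256). The change of PPRC1 in SC07 against SC01 turned to -0.013 with upper-quartile scaling, -0.0062 when 3 libraries had to reach 1 CPM and -0.095 with library totals only, and ranged from -0.043 to 0.067 when 1 library was left out. PPARGC1B in SC10 against SC07 ranged from -0.13 to 0.010 when 1 library was left out, the last without SC10 replicate 3. TFB1M in SC10 against SC01 passed with library totals only (-0.21, adjusted p = 0.0342). With the longest transcript as length, PPARGC1A's share of the coactivators was 17.6% in SC01, 77.8% in SC07 and 72.9% in SC10. Leaving out 1 library moved no list's number of calls by over 1.5 times in total, but it did so by direction. Without SC10 replicate 3, lower calls of co-regulators went from 3 to 5 (SC07 against SC01) and higher ones from 1 to 3 (SC10 against SC07). Lower calls then also went from 1 to 2 in mitochondrial DNA (SC07), RNA processing (SC07 and SC10) and import (SC10). Without SC01 replicate 3, SC07 replicate 1 or SC07 replicate 2, lower calls went from 1 to 0 in RNA processing (SC07). The cause of these shifts was not tested. Replicate numbers did not pair the samples (same-number correlations -0.0195 to 0.0429), and a replicate block made 1 member, PPARGC1A, lower in SC10 against SC07 (adjusted p = 0.0223), with 6 members passing instead of 5.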
